A study of Mus musculus with 2 samples.

Results

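Proliferin is encoded in the mouse by closely related genes of the prolactin family, and 2 of them, Prl2c2 (ENSMUSG00000079092) and Prl2c3 (ENSMUSG00000056457), are described here in primary preadipocyte cultures of inguinal white (iWAT) and interscapular brown (iBAT) adipose tissue. They are 2 of the 28651 genes listed in the iWAT library and of the 29958 listed in the iBAT library. The genes were chosen by their summed counts, which were far higher in iBAT than in iWAT, so the levels per library are a description with no test. The cultures came from wild-type C57BL/6N mice whose age the labels give as 8 to 12 weeks. Stromal vascular cells of pooled animals were grown to 80% confluency and then kept for 48 h without treatment or with 5.5 nM of FGF1, FGF2 or FGF8. The published methods instead name vehicle, FGF1 and FGF2 and another age range, and which is right was not settled here. The 4 treatments of a depot were merged into 1 single-cell library, and the files used here hold no treatment tag per cell. A cell's treatment and its proliferin level therefore cannot be told apart, and no treatment is compared.

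Proliferin, also called mitogen-regulated protein, was found as a transcript that growth factors and serum raise in cultured mouse fibroblasts. It is best known as a placental hormone that trophoblast giant cells secrete at mid-gestation, when it acts on endothelial cells and promotes vessel growth. The secreted glycoprotein binds the cation-independent mannose 6-phosphate receptor, which is encoded by Igf2r, and does not act through the classical prolactin receptor, Prlr. Pdgfra, a receptor for platelet-derived growth factor, marks the stromal cells of adipose tissue that contain the preadipocytes.

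On GRCm39, the build named in the submitters' processing notes as mm39, Prl2c3 spans chr13:12805705-12814968 and Prl2c2 spans chr13:13170710-13179968, both on the minus strand. The nearby proliferin gene Prl2c5 spans chr13:13357298-13366508 on the plus strand. The gap between Prl2c3 and Prl2c2 is 356 kb and that between Prl2c2 and Prl2c5 is 177 kb. Each annotated transcript has 5 exons. The coding sequences of Prl2c2 and Prl2c3 are both 672 bases long in GENCODE M39 and differ at 3 positions, counted from 1 at the A of the start codon and written with the Prl2c2 base first. They are T14C, C200A and T319G, and the stretches around them are shown because they are the letters by which a coding read can be assigned to either gene. Capitals mark the base that differs.
Prl2c2, coding bases 1 to 30: atgctcccttcttTgattcaaccatgctcc
Prl2c3, coding bases 1 to 30: atgctcccttcttCgattcaaccatgctcc
Prl2c2, coding bases 186 to 215: ttcagaactgttcaCtgaatttgaaaaaca
Prl2c3, coding bases 186 to 215: ttcagaactgttcaAtgaatttgaaaaaca
Prl2c2, coding bases 305 to 334: ggctcacacactatTcagctcttctgaaat
Prl2c3, coding bases 305 to 334: ggctcacacactatGcagctcttctgaaat
The difference nearest to the 3' end, T319G, lies 466 bases before the end of the Prl2c2 transcript. Over the last 300 bases of the transcripts, where this assay primes, 295 bases could be aligned and 0 of them differed. Another 10 bases lay in gaps, and the annotated transcripts hold 113 (Prl2c2) and 118 (Prl2c3) bases after the coding sequence. Prl2c5 was further away, with 97.0% identity to Prl2c2 and 96.9% to Prl2c3 over the coding sequence. How reads that match more than 1 of these genes were counted is not stated, so the sum of Prl2c2 and Prl2c3, called proliferin below, is the firm quantity and the split between them is uncertain.

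RefSeq promoters, taken here from 250 bases before to 50 after the start on GRCm38.p6, were at hand for Prl2c3 (chr13:12800030-12800329, minus strand) and Prl2c5 (chr13:13182466-13182765, plus strand). They are shown because the levels of these genes differed greatly although the promoters were 96.0% identical, with 12 mismatches over 299 aligned bases. Capitals mark the bases that differ or have no partner in the other promoter.
Prl2c3 promoter: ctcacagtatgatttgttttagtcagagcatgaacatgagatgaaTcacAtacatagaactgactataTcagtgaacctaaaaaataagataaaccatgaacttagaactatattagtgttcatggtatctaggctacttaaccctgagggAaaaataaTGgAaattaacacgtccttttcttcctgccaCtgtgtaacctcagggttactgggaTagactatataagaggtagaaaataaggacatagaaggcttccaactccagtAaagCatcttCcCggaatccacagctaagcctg
Prl2c5 promoter: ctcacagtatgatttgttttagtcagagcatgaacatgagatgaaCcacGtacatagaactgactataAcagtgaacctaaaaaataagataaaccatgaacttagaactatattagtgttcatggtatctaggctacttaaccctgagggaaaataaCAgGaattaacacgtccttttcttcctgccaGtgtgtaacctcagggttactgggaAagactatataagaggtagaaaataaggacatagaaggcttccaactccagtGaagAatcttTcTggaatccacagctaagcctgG
The AP-1 factors Fos and Jun bind TGACTCA or TGAGTCA, and the search was wider, for TGANTCA with any middle base. With both strands searched, TGANTCA occurred at 1 place in the Prl2c3 window, 209 bases before the start, and at 0 places in the Prl2c5 window. The match covers a base that differs between the windows. It reads TGAATCA, with A in the middle, and is therefore not the usual AP-1 site. TGANTCA occurred in 7.81% of the 32851 promoters of this length. TGTTCT, a glucocorticoid receptor site, TATAAA and TGACNNNGC, the core of the antioxidant response element, had 0 matches in both windows and were held by 19% (TGTTCT), 13.6% (TATAAA) and 12.4% (TGACNNNGC) of all promoters. TATAAA is only 1 form of the TATA box, and both windows hold TATATAAG, another form that was not searched for. None of the 4 motifs overlapped another in these windows, and a missing match says only that these letters were absent from the window.

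The iWAT library held 503611913 unique molecular identifiers (UMIs, 1 per captured transcript) in 29962 barcodes, and the iBAT library 815235820 UMIs in 28636 barcodes. After the cell filter 29744 iWAT cells with a median of 16204 UMIs and 28215 iBAT cells with a median of 27235 UMIs remained, and 8 barcodes occurred in both libraries. Cells with a Pdgfra UMI and no marker gate of another class numbered 16627 in iWAT (55.9%) and 24966 in iBAT (88.5%). In these cells the female-specific Xist was at 326 CPM (UMIs per 1000000 UMIs) in iWAT and at 0.0502 CPM in iBAT. The sum of 4 Y-linked genes was 1.56 CPM in iWAT, against 150 CPM in iBAT. Depot therefore cannot be told apart from sex, or from any other property of these 2 libraries. With a single library for each depot no replicate spread is known, and the intervals below, all at 95%, cover counting error only.

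Proliferin was abundant in the iBAT culture and scarce in the iWAT culture. Over all kept iBAT cells Prl2c2 gave 90249 UMIs, a level of 114 CPM (113 to 115), and Prl2c3 gave 253986 UMIs, a level of 321 CPM (320 to 322). Over all kept iWAT cells Prl2c2 gave 3723 UMIs, a level of 7.42 CPM (7.18 to 7.66), and Prl2c3 gave 1337 UMIs, a level of 2.66 CPM (2.52 to 2.81). In Pdgfra-positive cells proliferin stood at 444 CPM (442 to 445) in iBAT and 2.95 CPM (2.76 to 3.14) in iWAT. Prl2c5 was at 4.29 CPM over the kept iBAT cells, next after these genes, and at 0.0817 CPM over the kept iWAT cells, where Prl3a1 (0.959 CPM) and other relatives were above it. Prl2c1, the proliferin gene most distant over the coding sequence but not over the last 300 bases, gave 104 UMIs in iBAT and 4 in iWAT. All other prolactin-family genes listed were below 1 CPM in both libraries. Among these, Prl3d1 and Prl3d2, which encode placental lactogen in trophoblast giant cells, gave 452 and 549 UMIs in iBAT. Prlr gave 430 UMIs in iBAT and 2136 in iWAT.

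Within the iBAT culture proliferin was very unevenly spread over the Pdgfra-positive cells. To compare cells of different depth, the members' UMIs were thinned at random to a depth of 10000 UMIs per cell, which every iBAT cell reached. After thinning 27.8% of cells (27.2 to 28.4) held a proliferin UMI, against 45.1% without thinning, and 1599 cells (6.40%, 6.10 to 6.72) held 10 or more. The mean was 3.87 UMIs and the variance 447, a variance over mean of 116. A Poisson count with that mean would leave 2.08% of cells at 0, whereas 72.2% were at 0. The 75th percentile was 1 UMI, the 90th was 4, the 95th was 15, the 99th was 91 and the highest cell held 536, which is 5.36% of its thinned UMIs. Without thinning, the cell with most held 2948 proliferin UMIs. Ranked among the 6513 genes with a mean of at least 0.2 thinned UMIs per cell, Prl2c3 had the highest variance over mean (87.8) and Prl2c2 the ninth highest (30.8). Col1a1, the main collagen gene of these cells, came second with 59.5 although its mean of 67.1 UMIs was far above the 2.86 of Prl2c3.

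The unevenness repeated between separate draws of molecules from the same cells. When the UMIs of each cell were parted at random into a pair of sets of 5000, the top 10% of cells by the first set had a mean of 17.8 proliferin UMIs in the second set, the bottom 10% 0.109 and the other 90% of cells 0.171. The 250 cells with the most proliferin, 1% of the Pdgfra-positive iBAT cells, held 49.8% of its UMIs, and the top 10% held 94.3%. In iWAT the 392 of 16627 Pdgfra-positive cells with any proliferin UMI held 919 UMIs in all, and after thinning 1.62% of the 14975 cells deep enough had a UMI and 6 had 10 or more. The 1652 iWAT cells below 10000 UMIs were left out of the thinned values.

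**Figure D1:**
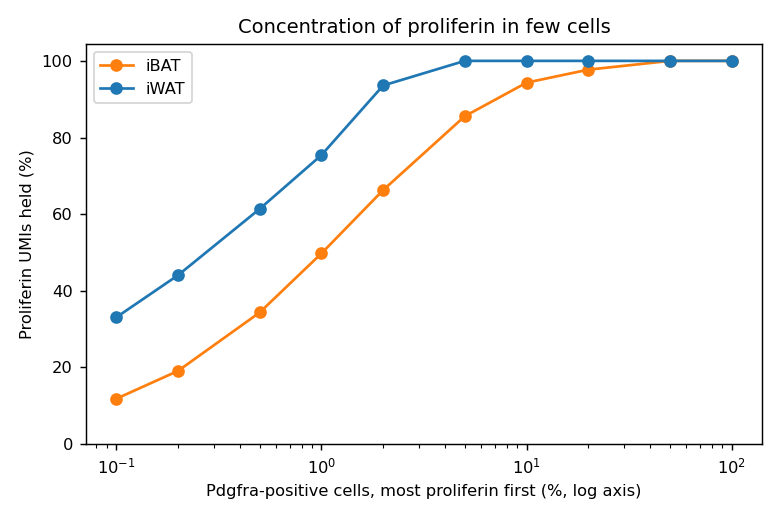
Share of all proliferin UMIs (vertical axis, %) held by the Pdgfra-positive cells with the most proliferin (horizontal axis, % of cells on a log axis) in each library, unthinned. In iBAT 1% of cells held 49.8% of the UMIs, and in iWAT 75.4%. In iWAT only 392 of 16627 cells held any of the 919 UMIs, so the 2 lines are not a like comparison.

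Whether the distribution had more than 1 peak depended on the bins. In classes that double in width, chosen after seeing the data, the numbers of Pdgfra-positive iBAT cells were 18028 at 0 thinned UMIs, 4025 at 1 to 2, 972 at 3 to 6, 687 at 7 to 14, 515 at 15 to 30, 356 at 31 to 62, 215 at 63 to 126, 132 at 127 to 254, 35 at 255 to 510 and 1 above. Each class held fewer cells than the one before it, so in these classes the high cells formed a long tail with no second peak. The count of peaks was 3 in the bins of 0.5 on the log2(1 + UMIs) scale that had been set for this measure, 8 in bins of 0.25, and 1 in bins of 1 or without thinning. In the narrow bins low whole numbers leave gaps, so that neighbouring bins hold different numbers of possible values.

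**Figure D2:**
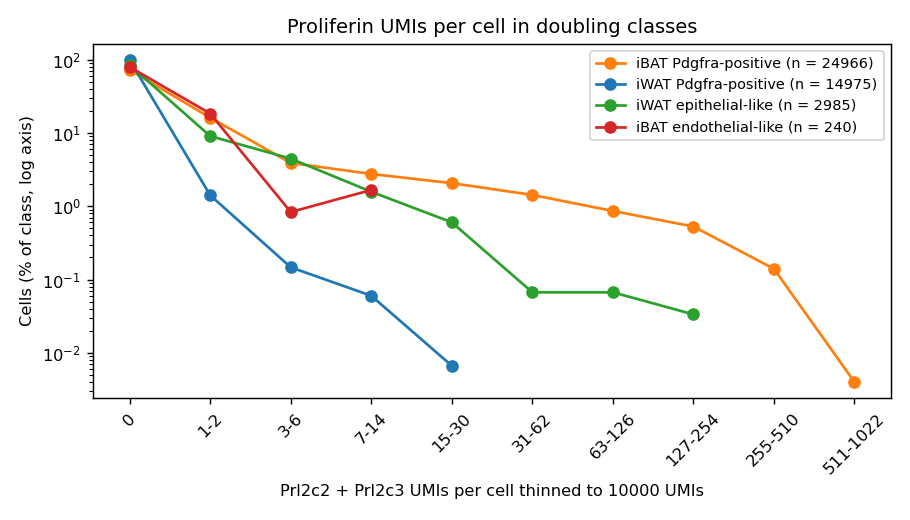
Percent of cells (vertical log axis) in doubling classes of thinned proliferin UMIs (horizontal axis) for Pdgfra-positive cells of both libraries, epithelial-like iWAT cells and endothelial-like iBAT cells, where n is the number of cells deep enough to thin. The iBAT Pdgfra-positive line declined through every class, while the iWAT Pdgfra-positive line ended at 17 UMIs.

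The balance of the 2 genes was opposite in the 2 libraries. Prl2c2 made up 26.3% of proliferin UMIs (26.1 to 26.4) in Pdgfra-positive iBAT cells and 68.4% (65.3 to 71.4) in Pdgfra-positive iWAT cells. In the epithelial-like iWAT cells it was 74.5% (73.1 to 75.9). Within iBAT the share lay between 19.4% and 28.2% at every level of proliferin. It was 19.4% (18.4 to 20.4) in cells with 0 thinned UMIs, from the UMIs that thinning had removed, 20.7% in cells with 1, 24.2% with 2 to 4, 27.1% with 5 to 9, 26.6% with 10 to 29, 28.2% with 30 to 99 and 25.5% (25.3 to 25.8) with 100 or more. Of all Pdgfra-positive iBAT cells, 4265 held UMIs of both, 6014 of Prl2c3 alone, 991 of Prl2c2 alone and 13696 of neither. In the 1911 cells with at least 20 unthinned UMIs the share of Prl2c2 had a median of 27.8%, a 10th percentile of 13.6% and a 90th percentile of 39.3%, and 9 cells held more Prl2c2 than Prl2c3. Its SD over these cells was 9.53 percentage points, against 6.06 for binomial counting alone. In the 712 cells with at least 100 UMIs the SD was 7.15 against 3.09, so the counted balance differed between single cells by more than counting error. Since the assignment of reads to the 2 genes is uncertain, whether their expression differed in this way was not tested. Pearson's r of the 2 genes over the 24966 cells on the log2(1 + thinned UMIs) scale was 0.88, a description that shares the libraries and the near-identical 3' ends.

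**Figure D3:**
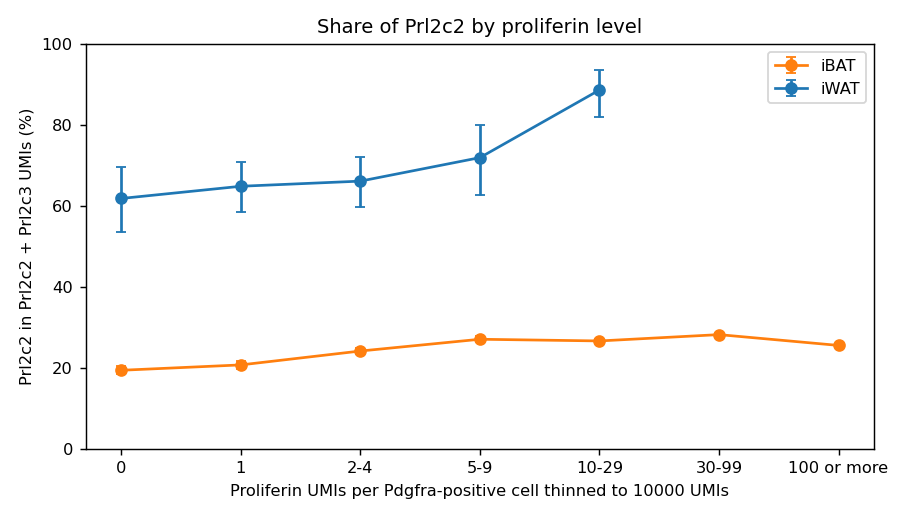
Share of Prl2c2 in the proliferin UMIs (vertical axis, %) of Pdgfra-positive cells by thinned proliferin UMIs per cell (horizontal axis) in each library, with 95% exact binomial intervals. The iBAT shares lay between 19.4% and 28.2%, and the iWAT shares between 61.8% and 88.6%.

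Some other genes of the family were higher in the cells with most proliferin. Of 21 further relatives with a UMI in the top or bottom 10% of cells by proliferin, 7 had an interval above 0 for the ratio of top to bottom, 0 had one below 0 and 14 had one across 0. The share of all genes with such an interval was not computed. Several of the 14 gave hardly any UMIs, such as Prl3b1 and Prl4a1 with 1 in the top and 0 in the bottom decile. The tally is therefore no result about the family, and the levels of single genes follow. Prl2c5 stood at 0.366 CPM in iBAT cells with 0 thinned UMIs, 11.6 CPM with 10 to 29, 43.2 CPM with 30 to 99 and 218 CPM with 100 or more. A single cell gave 260 of its 3165 UMIs in Pdgfra-positive cells, and that cell held 796 proliferin UMIs. Without it Prl2c5 was at 4.05 CPM over these cells, against 4.42 CPM with it. Over the same groups Prl2c1 was at 0.0235 CPM with 0 thinned UMIs and 5.59 CPM with 100 or more. Prl3d1 was at 0.301 and 11.2 CPM and Prl3d2 at 0.364 and 12.1 CPM, the lower value in cells with 0 thinned UMIs and the higher in cells with 100 or more. The placental lactogen genes are more distant in sequence than the proliferin genes. Whether reads of Prl2c2 or Prl2c3 had been counted under these names was not tested.

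Most proliferin of the iBAT culture was in the Pdgfra-positive cells, which held 92.4% of the library's proliferin UMIs and 90.6% of all its UMIs. Cells with UMIs of at least 3 markers of another class were set apart, and each such class also contained proliferin. The endothelial-like cells (240) stood at 46.1 CPM (40.8 to 51.8), the mural-like cells (138) at 61.6 CPM (53.9 to 70.2), the immune-like cells (417) at 214 CPM (206 to 223), the skeletal muscle-like cells (273) at 227 CPM (215 to 240) and the Schwann-like cells (829) at 256 CPM (248 to 264). After thinning, the share of cells with a proliferin UMI was 20.8% in endothelial-like, 24.5% in immune-like, 23.9% in Schwann-like, 17.2% in skeletal muscle-like and 17.4% in mural-like cells, against 27.8% of Pdgfra-positive cells. Endothelial cells are not known as a source of proliferin, but free RNA was not measured and the class was not a clean reference, since 49.4% of its cells with under 10 thinned UMIs held a Pdgfra UMI and its stromal markers summed to 4221 CPM. Whether shares near 20.8% are background or expression was not tested. Cells with 10 or more thinned UMIs were 1 of 240 endothelial-like cells (0.417%, 0.0105 to 2.3) against 6.40% of Pdgfra-positive cells, and 19 immune-like, 24 Schwann-like, 9 skeletal muscle-like and 3 mural-like cells.

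Those few cells set the levels of the immune-like, Schwann-like and skeletal muscle-like classes. The 19 immune-like cells held 78.2% of the proliferin of their class, the 24 Schwann-like cells 82.0% and the 9 skeletal muscle-like cells 88.8%. This was not particular to those classes, since the 1599 Pdgfra-positive cells with 10 or more thinned UMIs likewise held 88.8% of the proliferin of theirs. A Pdgfra UMI was found in 16 of the 19, in 17 of the 24 and in 8 of the 9, against 64.8% of the other immune-like, 39.4% of the other Schwann-like and 36.4% of the other skeletal muscle-like cells. Their median depth was also greater, at 38454 UMIs against 26833.5 in the other immune-like cells, 29955 against 16333 in the other Schwann-like cells and 32957 against 20433 in the other skeletal muscle-like cells. Without cells of 10 or more thinned UMIs the level was 42.0 CPM in endothelial-like, 49.5 CPM in immune-like, 48.2 CPM in Schwann-like, 26.7 CPM in skeletal muscle-like and 24.8 CPM in mural-like cells, and 53.7 CPM in Pdgfra-positive cells. The gate also mattered. Asking for 4 markers gave 35.4 CPM in endothelial-like and 105 CPM in skeletal muscle-like cells, and asking for 2 gave 336 and 341 CPM. The 1328 iBAT cells with no Pdgfra UMI and no gate stood at 586 CPM, and 98 of them had 10 or more thinned UMIs. The 73 Pdgfra-positive cells that also met the adipogenic gate, which includes Adipoq and Plin1, stood at 1871 CPM, or 1496 CPM without the cell that held most, and 22 of them had 10 or more thinned UMIs.

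**Figure D4:**
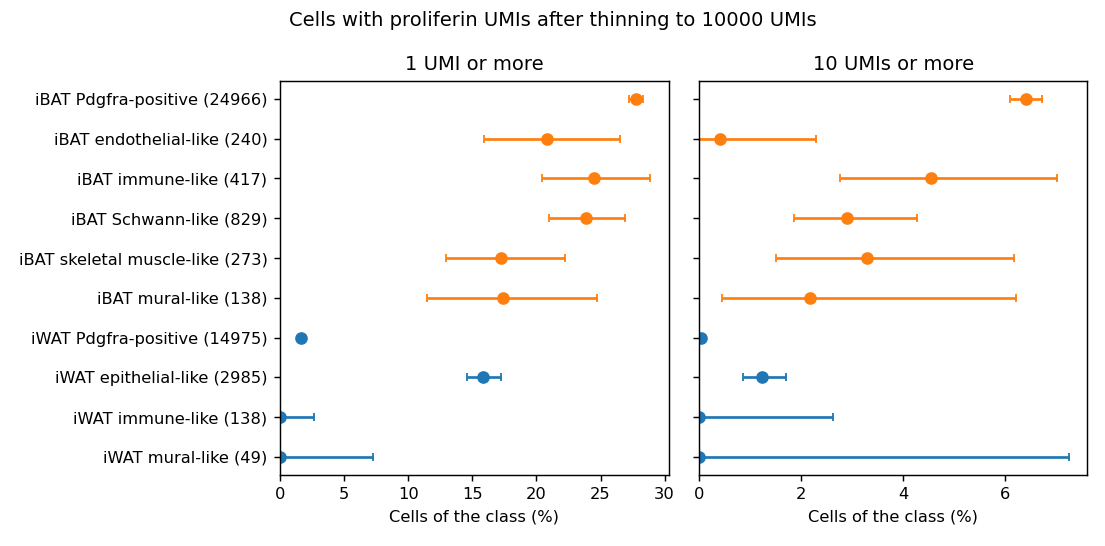
Percent of cells with at least 1 (left) and at least 10 (right) proliferin UMIs after thinning to 10000 UMIs, by marker-gated class, with 95% exact binomial intervals and the number of thinned cells in brackets. The iBAT classes shown lay between 17.2% and 27.8% on the left, whereas on the right endothelial-like cells (0.417%) were far below Pdgfra-positive cells (6.40%). Cells of the adipogenic gate are not shown apart.

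In the iWAT culture the proliferin was mainly epithelial. The 4789 epithelial-like cells, gated on genes such as Epcam and the keratins Krt5 and Krt14, held 71.9% of the library's proliferin UMIs at 58.9 CPM (57.0 to 60.9), and the Pdgfra-positive cells held 18.2%. Epithelial-like cells with a Krt5 or Krt14 UMI, keratins of basal cells, stood at 71.4 CPM (69.0 to 73.9), and those without at 22.2 CPM (19.96 to 24.7). After thinning, 15.8% of 2985 epithelial-like cells had a UMI and 37 had 10 or more, with a maximum of 227. The 193 immune-like iWAT cells held 1 proliferin UMI and the 32 endothelial-like cells 0, which allows a level of up to 8.12 CPM in the latter. The 69 Schwann-like iWAT cells held 68 proliferin UMIs, 63 of them in 1 cell, and without that cell they stood at 7.38 CPM. No iBAT cell met the epithelial gate, so the epithelial level could not be compared between libraries.

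Next the Pdgfra-positive iBAT cells with most proliferin were set against those with least. The top decile of 2496 cells held 4 or more thinned UMIs each and 298493 proliferin UMIs in all, a level of 3802 CPM. The bottom decile, also 2496 cells, held 0, and since 72.2% of cells tied at 0 thinned UMIs it was drawn from them by the unthinned value and then at random. The cells were ranked by proliferin, so the comparison is a description and has no test. Of 3573 genes with at least 50 CPM in either decile, relatives left out, 14 (0.392%) were at least 2-fold higher in the top decile and 16 (0.448%) at least 2-fold lower, and the median log2 ratio of all was -0.00. The ratio was above 0 for 48.6% of them. A gene under 50 CPM in 1 decile entered only through the decile where it was higher, so that its direction was fixed by the filter. Among the genes named next this holds for Gsta4, Serpinb2, Cd53, Gdf15, Ampd3, Pparg and Nrn1 at the high end and Prelp, Fhl1 and Mylk at the low end.

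Gsta4 had the highest ratio and Nqo1 the next. Gsta4, a glutathione S-transferase for lipid peroxidation products, was at 95.3 CPM in the top and 12.96 CPM in the bottom decile, a log2 ratio of 2.88 (2.78 to 2.98). Nqo1, a quinone reductase, was at 285 and 75.3 CPM (log2 ratio 1.92, 1.87 to 1.96). Prdx1, a peroxiredoxin that removes hydrogen peroxide, was at 3584 and 1602 CPM (log2 ratio 1.16, 1.15 to 1.17). Fabp4, a fatty acid carrier of adipocytes, was at 208 and 75.2 CPM (log2 ratio 1.47), and Pparg, the master regulator of adipogenesis, at 59.8 and 23.9 CPM (log2 ratio 1.33). The other 5 of the 10 highest were Serpinb2, a plasminogen activator inhibitor (1.60), Cd53, a tetraspanin of leukocytes (1.59), Gdf15, a stress-induced hormone (1.49), Ampd3, an AMP deaminase (1.44), and Nrn1, a neurite growth factor (1.16).

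At the other end of the ranking, Prelp, a small leucine-rich proteoglycan, was at 29.8 CPM in the top and 127 CPM in the bottom decile, a log2 ratio of -2.10 (-2.16 to -2.03). Timp3, a matrix-bound inhibitor of metalloproteinases, was at 278 and 1080 CPM (log2 ratio -1.96), and Ccn5, a matricellular protein, at 112 and 410 CPM (log2 ratio -1.87). Next came Igfbp4, which binds insulin-like growth factors (-1.67), Mylk, the myosin light chain kinase (-1.62), Fhl1 (-1.46), Cemip, a hyaluronan-degrading protein (-1.41), Gas6, a ligand of the Axl receptor (-1.40), Col8a1, a collagen chain (-1.19), and Sfrp1, a secreted Wnt antagonist (-1.19). These 20 genes were picked for their ratios in the same cells, so their direction over steps of proliferin was largely fixed and the steps are a description of size. From cells with 0 thinned UMIs (18028) through 1 to 4 (4674) and 5 to 29 (1502) to 30 or more (762), all 10 of the highest genes were higher at every step and all 10 of the lowest were lower at every step. Gsta4, for example, was at 11.8, 16.9, 42.5 and 216 CPM and Timp3 at 1048, 757, 301 and 184 CPM.

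**Figure D5:**
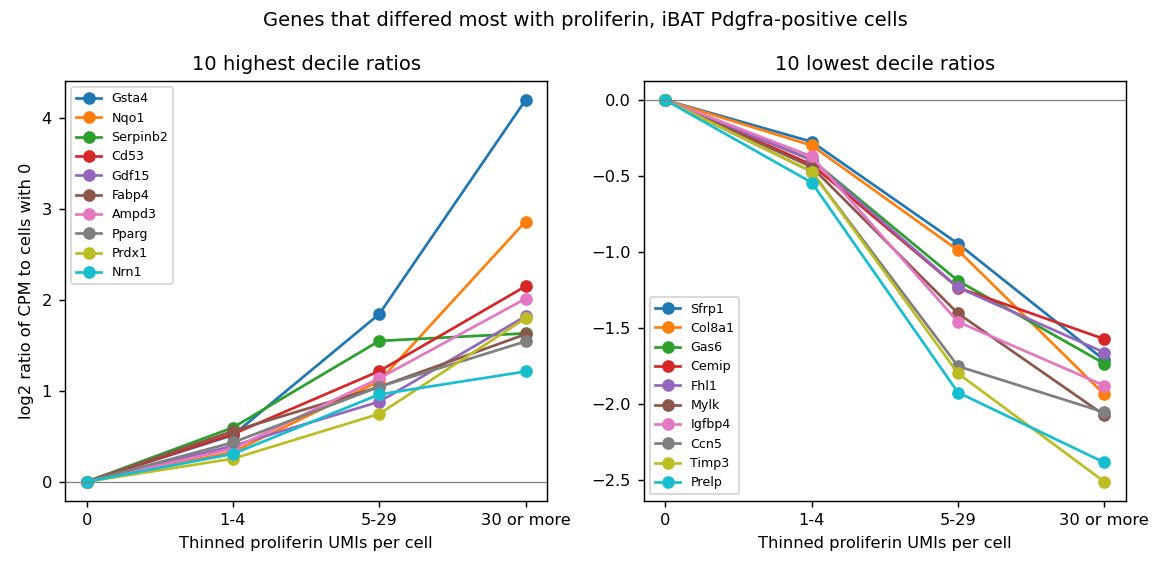
Log2 ratio of CPM to cells with 0 thinned proliferin UMIs (vertical axis) in 4 steps of thinned proliferin UMIs per Pdgfra-positive iBAT cell (horizontal axis), for the 10 genes with the highest (left) and the 10 with the lowest (right) decile ratio. All lines ran in 1 direction, with Gsta4 at 216 CPM and Timp3 at 184 CPM in the highest step.

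Top decile cells were somewhat deeper, with a median of 30769.5 UMIs against 26501 and 6037 detected genes against 5706.5, and had a similar mitochondrial share of 6.59% against 6.46%. The 6 stromal markers summed to 6867 CPM in the top and 11868 CPM in the bottom decile with none at 0, and each was lower in the top decile. The 6 adipogenic markers summed to 17.5 and 3.46 CPM with none at 0, and all 6 were higher in the top decile, led by Adipoq at 5.10 and 0.47 CPM. Cells that met the adipogenic gate were 1.04% of the top and 0.160% of the bottom decile. The mural markers summed to 16.9 and 26.2 CPM and the Schwann markers to 7.63 and 11.8 CPM. The immune markers summed to 18.3 and 19.3 CPM, among them Ptprc at 0.14 and 0.10 CPM. Without the adipogenic cells 13 genes were higher and 17 lower, and without the deepest 5% of cells 10 were higher and 16 lower. Xist was at 0.0807 CPM and the 4 Y-linked genes summed to 144 CPM in cells with 30 or more thinned UMIs, against 0.0411 and 150 CPM in cells with 0, so both groups carried male transcripts.

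The gene lists drawn up for the setting of proliferin are read against all 3573 genes, of which 0.840% were past 2-fold in either direction and 48.6% lay above 0. A count of 0 past 2-fold in a short list is therefore the background and no result about the list. Among the matrix genes 0 of 9 tested were past 2-fold, but all 9 were lower in the top decile with a median log2 ratio of -0.62, from Col1a1 at 3666 and 7088 CPM (-0.95) to Col6a1 (-0.21). Lum, below the filter, was at 1.80 and 4.83 CPM (-1.43). All 5 contractile genes were likewise lower, with a median of -0.51 and 0 past 2-fold, from Acta2 (-0.63) to Tpm2 (-0.18), and below the filter Cnn1 was at -1.09 and Actg2 at -1.26. Of 6 committed preadipocyte genes, 3 were at least 2-fold higher, against 0.392% of all genes, which were Fabp4, Pparg, which entered only through the top decile, and Lpl, the lipoprotein lipase (572 and 264 CPM, 1.11). Without the cells of the adipogenic gate Fabp4 was at 1.13 and Pparg at 1.19, both smaller ratios than with them. The median of the committed preadipocyte list was 0.65, Cebpa was at 0.19, Cebpb at 0.10 and Cxcl14 at -0.54. Of the 3 members below the filter, Gdf10, a ligand of the TGF-beta family, was lower in the top decile at 7.22 and 24.1 CPM (-1.74), and so was Icam1, an adhesion molecule, at 9.17 and 28.0 CPM (-1.61), whereas Cd36, a fatty acid transporter, was higher at 12.2 and 2.38 CPM (2.36). Interstitial progenitor genes had 0 of 3 past 2-fold with a median of 0.05, from Ly6c1 (0.32) to Cd248 (-0.53). Below the filter, Dpp4 was at 3.11 and 1.75 CPM (0.83) and Sema3c at 16.3 and 10.6 CPM (0.62). Of the other members below it, Cd55 and Efhd1 lay above 0 and Pi16 below.

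The next lists hold genes of growth signals, which are known to raise proliferin in fibroblasts, and also genes of the glucocorticoid response and the cell cycle. AP-1 subunits had 0 of 6 past 2-fold and a median of -0.08, from Fosl1 at 113 and 79.6 CPM (0.51) to Fos at 84.6 and 118 CPM (-0.48). The feedback inhibitors of ERK signalling had 0 of 6 and a median of 0.06, from Spry2 (0.35) to Spry1 (-0.62). Below the filter Spry4 was at 49.5 and 37.1 CPM (0.41), with Dusp4 and Etv4 also above 0 and Etv5 below. The growth response genes had 0 of 9 and a median of 0.21, with 6 above 0 and 3 below, from Phlda1 (0.55) to Egr1 (-0.40). Of the glucocorticoid list only the receptor gene Nr3c1 reached the filter (-0.23). G1/S genes had 0 of 4 past 2-fold and all 4 above 0, with a median of 0.15, from Rrm2 (0.39) to Mcm6 (0.07), and G2/M genes 0 of 8 with a median of 0.03, from Cdk1 (0.11) to Mki67 (-0.13). Mki67, a marker of cycling cells, was at 103 CPM in cells with 0 thinned UMIs, 91.2 CPM with 30 to 99 and 66.8 CPM with 100 or more.

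Receptors and ligands were read in the same way. Igf2r, the proliferin receptor, was at 95.6 CPM in the top and 106 CPM in the bottom decile (-0.14), and Prlr, at 0.637 and 0.365 CPM, was below the filter. Of the FGF axis 0 of 4 were past 2-fold but all 4 lay above 0, with a median of 0.23, from Fgf10 at 102 and 73.6 CPM (0.47) to Fgf7 (0.02). Fgf2 was at 213 and 183 CPM (0.22, 0.18 to 0.25) and Fgfr1, a receptor for FGFs, at 328 and 278 CPM (0.24, 0.21 to 0.27). Below the filter, Fgfr2, another FGF receptor, was at 40.4 and 44.3 CPM (-0.13) and Ucp1, the uncoupling protein of brown fat, at 0.29 and 0.20 CPM. Angiogenic ligands had 0 of 2 past 2-fold with a median of 0.00, which were Vegfa (0.38) and Vegfd (-0.38). Below the filter, Pgf, the placental growth factor, was at 0.955 and 2.77 CPM (-1.54) and Igf1 at 11.4 and 21.7 CPM (-0.93). Lysosomal genes, since Igf2r also sorts lysosomal enzymes, had 0 of 9 with a median of -0.06, and the highest was Ctsb, a cathepsin (0.31).

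The cells of the extreme tail showed larger ratios. In a comparison chosen after these values had been seen, the 762 cells with 30 or more thinned UMIs were set against the 13696 cells with no proliferin UMI at all. Of 3599 genes 46 (1.28%) were at least 2-fold higher and 36 (1%) at least 2-fold lower. The highest was Hsd3b6, a hydroxysteroid dehydrogenase of steroid synthesis, at 51.4 CPM against 0.726 CPM (log2 ratio 6.14, 5.95 to 6.34). Next were Gsta3, a glutathione S-transferase (67.1 and 1.87 CPM, 5.16), Gsta4 (4.22), Slc7a11, the cystine importer (91.8 and 5.07 CPM, 4.18), Nqo1 (2.94) and Acss2, an acetyl-CoA synthetase (56.4 and 7.99 CPM, 2.82). Hsd3b6 and Gsta3 have close relatives in sequence, so their counts are uncertain. At the other end were Timp3 (-2.57) and Prelp (-2.47). Hsd3b6, Gsta3, Gsta4, Slc7a11, Acss2 and Pparg passed the filter only through the high cells, and Prelp only through the cells with no proliferin UMI. Of the matrix list Col1a1 (-1.34), Col3a1 (-1.11) and Postn (-1.48) were now past 2-fold. Of the committed preadipocyte list Fabp4 (1.71), Pparg (1.60) and Lpl (1.15) were past it upward and Cxcl14, a chemokine, downward (-1.05), and the FGF axis and AP-1 lists still had 0 genes past it.

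A list of 34 enzymes of glutathione, thioredoxin, quinone and haem metabolism was drawn up after Gsta4, Nqo1 and Prdx1 had been seen, so it supports nothing by itself. In the decile comparison 27 of the 34 were tested, 5 were at least 2-fold higher and 26 lay above 0. Of the 27, Gsta4, Cat and Blvrb passed the filter only through the top decile. Of the other 24, 23 lay above 0 and 3 were at least 2-fold higher, with a median log2 ratio of 0.63. Of all genes 48.6% lay above 0 and 0.392% were at least 2-fold higher. Nqo1 and Prdx1, which prompted the list, are among the 3, so that count was partly fixed by the choice. The list was chosen after the iBAT values had been seen. The counts above 0 in iBAT, here and below, may thus be partly fixed too and are only a description. The 5 were Gsta4, Nqo1, Prdx1, the sulfiredoxin Srxn1 (1.07) and the biliverdin reductase Blvrb (1.03). With 30 or more thinned UMIs against 0 UMIs, 30 were tested, and 7 of them (Gsr, Gsta3, Gsta4, Slc7a11, Srxn1, Cat and Blvrb) passed the filter only through the high cells. Of the other 23, 23 lay above 0 and 11 were at least 2-fold higher, with a median of 0.96. Of all genes 43.1% lay above 0 and 1.28% were at least 2-fold higher, and Nqo1 and Prdx1 are again among the 11. Hmox1, haem oxygenase, was at 673 and 225 CPM (1.58), the glutamate-cysteine ligase subunits Gclc at 1.70 and Gclm at 1.36, Cat, catalase, at 1.35 and Txnrd1, thioredoxin reductase, at 1.34. The lowest of the list were the mitochondrial enzymes Sod2 (0.08) and Prdx3 (0.11) together with Gstm2 (0.09) and Gpx1 (0.13). In iWAT 23 of the 34 were tested between Pdgfra-positive cells with and without a proliferin UMI, and 5 passed the filter only through the cells with a UMI, among them Nqo1. Of the other 18, 15 lay above 0 and 0 were past 2-fold, with a median of 0.17, against 60.8% above 0 and a median of 0.03 for all genes.

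The gene most like proliferin over the 24966 Pdgfra-positive iBAT cells was Prdx1, among the 6511 genes ranked. These had a mean of at least 0.2 thinned UMIs per cell, and scarcer genes were not ranked. Pearson's r on the log2(1 + thinned UMIs) scale was 0.33 for Prdx1, 0.31 for Gsta4 and 0.31 for Nqo1. It was 0.24 for Ftl1, the ferritin light chain, 0.24 for Cyb5a, 0.23 for Nid1, a basement membrane protein, 0.21 for Esd, 0.20 for Gstp1, 0.20 for Ampd3 and 0.20 for Pgd. At the negative end r was -0.23 for Col1a1, -0.21 for Col1a2, -0.21 for Timp3, -0.18 for Ccn5 and -0.16 for Cdh11. Of 6511 genes 123 had an r of 0.1 or more in either direction. These values are weak, come from cells of 1 library and are given as a description.

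Nid1 is also a neighbour of the proliferin genes, and so is the next gene that stood out. Of the 15 protein-coding genes within 1 Mb of the span from Prl2c3 to Prl2c5, relatives left out, the closest beyond Prl2c5 are Gpr137b (chr13:13531198-13568599, minus strand), a lysosomal membrane protein, and then Nid1 (chr13:13612071-13686860, plus strand). Gpr137b was at 18.4 CPM in cells with 30 or more thinned UMIs and 6.02 CPM in cells with no proliferin UMI, a log2 ratio of 1.61 (1.47 to 1.76). Nid1 was at 1889 and 988 CPM, a ratio of 0.94 (0.92 to 0.95). The next gene on that side, Lyst, was at 14.2 and 15.6 CPM (-0.14), and on the other side the nearest, Ero1b, was at 2.18 and 3.29 CPM (-0.59). The remaining 11 lay between -0.88 (Ryr2) and 0.31 (Edaradd), both with under 1 CPM. These genes were looked at after the cells had been compared, and 3 of the 15, Nid1, Ggps1 and Arid4b, had passed the filter of the decile comparison, at 0.66, -0.09 and -0.05.

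The same genes were then read in iWAT, in cells the ranking had not used. Between the 392 Pdgfra-positive iWAT cells with a proliferin UMI and the 16235 without, 6 of 3559 genes (0.169%) were at least 2-fold higher and 1 (0.0281%) at least 2-fold lower. The ratio was above 0 for 60.8% of these genes, and the share with an interval above 0 was not computed. Several genes named next were under 50 CPM in both iWAT groups and lie outside this set. They are Gsta4, Cd53, Gdf15, Fabp4, Ampd3, Pparg and Nrn1 of the highest and Gas6, Mylk and Prelp of the lowest. The counts that follow therefore have no share over a like set of all genes beside them and are only a description. Of the 10 genes highest in iBAT, 9 had a positive ratio in iWAT and 8 an interval above 0, led by Gsta4 at 6.26 and 1.42 CPM (2.14, 1.70 to 2.55), Serpinb2 (1.16, 1.05 to 1.27) and Nqo1 (1.06, 0.92 to 1.20). Prdx1 was at 0.45, Nrn1 at 0.09 (-0.14 to 0.32) and Fabp4 at -0.06 (-0.22 to 0.09). Of the 10 lowest in iBAT, 9 were also lower in iWAT, among them Ccn5 (-1.10), Prelp (-0.95) and Timp3 (-0.61), whereas Igfbp4 was higher (0.43, 0.32 to 0.52). Cells with a UMI were deeper there too, with a median of 20957 UMIs against 18128. The 7 epithelial markers summed to 15.6 CPM in them and 11.1 CPM in cells without a UMI, and the 6 stromal markers to 18786 and 26257 CPM. The part of these differences in the result was not tested. The same genes were also read in the epithelial-like iWAT cells. This class was mixed, with stromal markers that summed to 5129 CPM. Proliferin was at 39.3 CPM in its 740 cells with a Pdgfra UMI and 64.0 CPM in those without. Unthinned, 18.6% of its cells with a Krt5 or Krt14 UMI held a proliferin UMI, against 7.96% of its other cells. The part of these mixtures in the ratios was not tested. Of the 10 genes lowest in iBAT 9 were again lower in cells with a proliferin UMI than in those without, from Prelp (-1.84) to Timp3 (-0.11), with Igfbp4 again higher (0.84). Of all 3585 genes with at least 50 CPM in either group 47.1% were lower, and the shares with an interval clear of 0 were not computed. Of the named genes 16 were under 50 CPM in both groups and so lie outside that set. Prelp rests on 8 UMIs in cells with a proliferin UMI and 132 in those without, and Pparg on 11 and 151. Of the 10 highest in iBAT 2 lay above 0 and 8 below, with 1 interval above 0 and 2 below. Those with a proliferin UMI had Gsta4 at -0.05 (-0.53 to 0.41), Nqo1 at 0.01 (-0.25 to 0.26) and Prdx1 at -0.01 (-0.04 to 0.01) relative to those without. Pparg was at -1.58 and Fabp4 at -0.73, while Serpinb2 was at 1.49 (1.31 to 1.67). Whether the ratios differ between these groups of cells was not tested.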

How the data were processed

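Single-cell transcriptomes of 2 pooled primary cultures, 1 library per depot, were measured with BD Rhapsody whole-transcriptome libraries. Each deposited matrix gives UMI counts by gene and cell with no normalization, which the authors made on a commercial cloud pipeline. The submitters' processing notes name Seurat 5.0.0 and mm39, and the counting of reads with several matches is not given in the sources used here. Treatment tags per cell were not used here, and columns of other samples numbered 0.

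Cells with more than 200 and fewer than 7500 genes and under 30% mitochondrial UMIs were kept, as in the published methods. A class needed UMIs of at least 3 of its markers, and cells that met more than 1 class (25 in iWAT, 24 in iBAT) were left out. Doublets were not called by a program. They were addressed only in part, by this rule and by leaving out the deepest 5% of Pdgfra-positive cells. The rule does not count Pdgfra, so a stromal cell joined to a cell of another class would stay in that class. A pair of stromal cells would stay too. The levels of the other classes were not repeated without the deepest cells. Pdgfra-positive cells had a Pdgfra UMI and no such class.

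Levels are summed UMIs as CPM with exact Poisson intervals, shares have exact (Clopper-Pearson) intervals, and ratios of CPM have exact binomial intervals. All are at 95% and cover counting error only. Shares of cells were compared after thinning to 10000 UMIs. With 1 library per depot no test was made, and cells were never used as replicates. Genes with at least 50 CPM in either group entered a comparison, and a gene was called at 2-fold. Named were the 10 highest and 10 lowest decile ratios, the 10 highest and 5 lowest correlations, the prolactin family, and 2 to 4 examples per list. The genes of the highest-cell comparison, the neighbours on the chromosome and the added enzyme list were chosen after their values were seen. The members and all lists were chosen with earlier results of these data known. The ratio routine was tested on simulated data. Alternatives covered the gate, the filter, thinning, ranking, depth, cycling and scaling. Python 3.11.15 was used with numpy 2.4.6, scipy 1.17.1, pandas 2.3.3, matplotlib 3.10.9 and biopython 1.88. Transcripts and gene positions came from GENCODE M39 on GRCm39.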

Additional observations from a re-analysis of the deposited data

Results flagged for a closer look

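Among the 20 genes with the highest and lowest decile ratios, 2 had ratios of opposite sign in the 2 libraries, and the difference was not tested. Igfbp4 had a log2 ratio of 0.43 (0.32 to 0.52) between Pdgfra-positive iWAT cells with and without a proliferin UMI, and of -1.67 (-1.69 to -1.65) between the top and bottom decile of Pdgfra-positive iBAT cells. In epithelial-like iWAT cells with a proliferin UMI it was also higher than in those without (0.84, 0.81 to 0.87). Fabp4 had a log2 ratio of -0.065 (-0.22 to 0.09) in iWAT, an interval that includes 0, and 1.47 (1.43 to 1.52) in iBAT. The comparisons differ in more than depot, since the iBAT deciles were ranked by level and the iWAT groups by the presence of a UMI, and the libraries differ in sex.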

How the results depend on the processing

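No paired analysis was possible because each depot has 1 library and no result comes from a test. The proliferin level of Pdgfra-positive iBAT cells (444 CPM) was 433 CPM with at least 3 Pdgfra UMIs, 437 CPM with any Pdgfra UMI, 440 CPM without adipogenic cells, 379 CPM without the deepest 5% of cells and 453 CPM with no filter on cells. The share of cells with a UMI (27.8%) was 27.2% without the deepest 5%, 20.5% after thinning to 5000 UMIs and 45.1% without thinning. The Prl2c2 share (26.3%) was 26.5% without the deepest 5%. The number of peaks (3) was 1 without thinning, 8 in bins of 0.25 and, in an alternative chosen after seeing the data, 1 in bins of 1. The levels of other iBAT classes were 35.4 CPM (endothelial-like), 224 CPM (immune-like), 185 CPM (Schwann-like), 105 CPM (skeletal muscle-like) and 10.2 CPM (mural-like, 9 cells) with 4 markers, and 336, 460, 348, 341 and 266 CPM in that order with 2 markers. The order of the Schwann-like, skeletal muscle-like and immune-like classes thus changed with the gate, and the cause was not tested. Genes higher and lower in the top decile (14 and 16) numbered 43 and 80 with a floor of 10 CPM, 4 and 8 with a floor of 200 CPM, and 2342 and 2712 unfiltered, where more or fewer genes were tested. They were 6 and 7 between the top and bottom 20% of cells, and 44 and 41 in cells with no UMI of the 6 cycling genes, where each decile held 131 cells. Cells with 30 or more thinned UMIs against cells with 0 UMIs, chosen after seeing the data, gave 46 and 36, or 45 and 35 without adipogenic cells and 75 and 74 in cells with no cycling UMI, where the higher group held 40 cells. Ranking by Prl2c2 or by Prl2c3 alone gave 14 and 16 each. None of the 20 named ratios changed sign under these alternatives, but this was largely fixed in advance. A floor does not alter a ratio, and the other settings rank or subset the same cells in which the genes had been picked. Between the top and bottom 20% Prdx1 (0.86), Nrn1 (0.89), Sfrp1 (-0.78), Col8a1 (-0.86) and Gas6 (-0.98) were within 2-fold, as was Gdf15 (0.92) in cells with no cycling UMI and Nrn1 (0.97) without the deepest 5%. The Pdgfra-positive iWAT values rest on 919 proliferin UMIs.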
